A study of Mus musculus with 9 samples.

Results

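The neurotrophin genes examined here are the ligand genes Bdnf and Ntf3 and the receptor genes Ntrk2, Ntrk3, Ngfr and Sort1. They were taken by name, through their Ensembl identifiers, and are 6 of the 22255 genes in the deposited table. The table covers 9 samples of RNA from hippocampal synaptoneurosomes, a preparation of brain homogenate in which sealed nerve endings and their attached postsynaptic parts are enriched. All mice were Fmr1 KO animals, a model of fragile X syndrome that lacks the RNA-binding protein FMRP, on the C57Bl/6J strain. AM6545 samples (n = 4, replicates A, B, C and E) came from mice given sub-chronic AM6545, a CB1 cannabinoid receptor blocker that is largely kept out of the brain, and vehicle samples (n = 5, replicates A to E) from mice given the vehicle. Age, sex, dose, the Fmr1 allele and whether each sample is 1 animal are not given in the sources used here, so p-values measure the spread between these samples, which may be partly technical.

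Neurotrophins are secreted growth factors that are made as precursors and cut to their mature form. Mature BDNF acts on the receptor kinase TrkB, encoded by Ntrk2, and neurotrophin-3 acts mainly on TrkC, encoded by Ntrk3. The uncut precursors bind the p75 receptor, encoded by Ngfr, together with sortilin, encoded by Sort1, which also sorts BDNF into the secretory pathway. In the hippocampus, BDNF release from excitatory neurons is known for its part in synaptic plasticity, and a truncated TrkB without the kinase is the main form in astrocytes.

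Bdnf is transcribed from several alternative starts, and the deposited counts are summed over all of them. RefSeq (GRCm38.p6) gives 7 start windows for Bdnf, 2 for Ntf3, 1 for Ntrk2 and 1 for Ngfr, each from 250 bases before a start to 50 after it. The sequence below is shown because it marks 1 of the 7 Bdnf starts that the summed counts pool. It lies before the third Bdnf start, at chr2:109692372-109692431 on the plus strand, and the capitals mark an 8-base match to TCACGTCA, the letters of the CREB element known from the activity-dependent Bdnf promoter, which begins 38 bases before the start.
Bdnf start 3: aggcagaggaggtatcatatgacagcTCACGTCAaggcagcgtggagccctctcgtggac
On either strand, TCACGTCA is in 1 of the 7 Bdnf windows and in 0.441% of 32851 windows of all genes. The full element TGACGTCA is in 0 of the 7 Bdnf windows and in 1.79% of all windows, and the shorter TGACG, which lies within both of these elements, is in 1 Bdnf window and 20.8% of all. These matches are descriptions of letters only.

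Total counts ran from 17628922 to 27263393 per sample. Fmr1 itself was counted in every sample, from 199 to 310 counts (9.45 to 13.3 CPM, that is, counts divided by library size with TMM scaling), and with no wild-type sample this level could not be set against an intact gene. The 8 excitatory neuron and synapse markers, among them Slc17a7, Camk2a and Dlg4, summed to 8021 to 8910 CPM in AM6545 samples. In vehicle samples they summed to 7507 to 9370 CPM. With no homogenate or other tissue to compare, these levels do not test the labelled tissue or its enrichment. Libraries differed in non-neuronal RNA: 6 oligodendrocyte markers summed to between 10736 CPM in vehicle C and 22474 CPM in vehicle A, and 6 choroid plexus markers to between 47.6 CPM in vehicle C and 4329 CPM in vehicle D. Between the groups, 6 of 6 choroid plexus markers were lower in AM6545 samples (median log2 fold change -1.49, 1 at an unadjusted p under 0.05), as were 5 of 5 ependymal markers (median -0.80, 3 at an unadjusted p under 0.05). The choroid plexus sums were 3997, 4329 and 2137 CPM in vehicle A, D and E, but 307 and 47.6 CPM in vehicle B and C. AM6545 samples ran from 60.5 to 930 CPM, so the groups overlapped. In such samples, fewer cells of a type and less RNA per cell cannot be told apart.

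Of the 6 genes, 5 could be compared and Ngfr fell under the count filter. Levels of different genes are compared here per kilobase of transcript, with the median length of the protein-coding transcripts of each gene in GENCODE M21. On that scale Ntrk2 was highest, at 151 ± 16.4 CPM per kilobase (SD, n = 9). Sort1 followed at 36.7 ± 5.40, Ntrk3 at 35.0 ± 4.43, Bdnf at 27.2 ± 1.89 and Ntf3 at 13.2 ± 1.25 CPM per kilobase (SD, n = 9). Ntrk2 was above Sort1 in 9 of 9 samples, and the ranges of the pair did not overlap. Sort1 was above Ntrk3 in 5 of 9 samples, so that these neighbours did not differ beyond their spread, and the ranges of Ntrk3 and Bdnf also overlapped, with Ntrk3 higher in 8 of 9 samples. Bdnf was above Ntf3 in 9 of 9 samples without overlap.

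**Figure D1:**
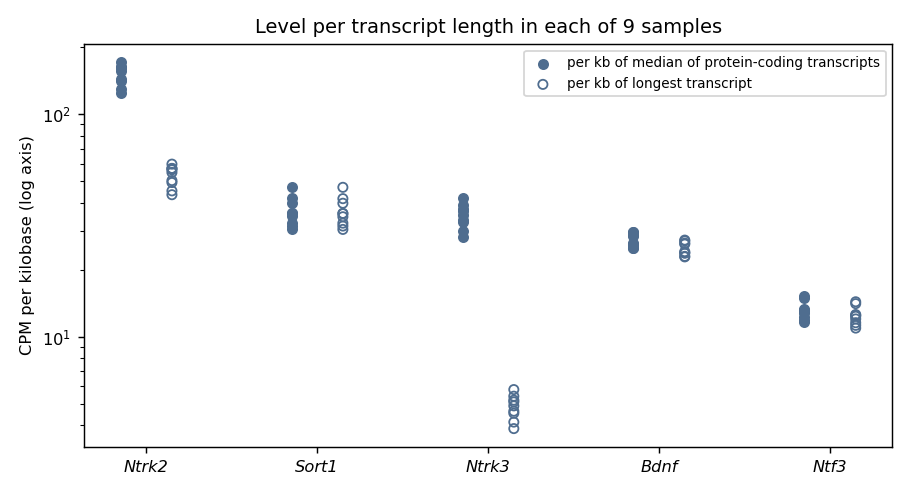
Level of each gene in CPM per kilobase (log axis) in each of the 9 samples, with the median protein-coding transcript length (filled) or the longest transcript (open) as the divisor. Ntrk2 is highest with either length, but with the longest transcript its range overlaps that of Sort1. Ntrk3 moves from 35.0 to 4.84 CPM per kilobase on average, and Ngfr is left out because it has 0 counts in some samples.

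The place of Ntrk3 in this order, and the lead of Ntrk2, depended on the transcript chosen. Its protein-coding transcripts in M21 run from 423 to 19703 bases, and those of Ntrk2 from 2284 to 8744 bases. With the longest transcript, Ntrk2 stood at 52.6 and Ntrk3 at 4.84 CPM per kilobase, so that Ntrk3 came below Bdnf (24.9) and Ntf3 (12.4) in 9 of 9 samples. Ntrk2 was then still above Sort1 (36.6) in 9 of 9 samples, but their ranges overlapped. They were 43.5 to 59.7 CPM per kilobase for Ntrk2 and 30.4 to 47.0 for Sort1. Gene counts do not separate kinase and truncated forms. Non-coding models overlap Bdnf, Ntrk2, Ntrk3 and Sort1 in M21, in part on the opposite strand; none of these is a row of the table, and the strand setting of the counting is not given in the sources used here.

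Bdnf (ENSMUSG00000048482.15), the gene of a TrkB ligand, had similar levels in both groups. In AM6545 samples A, B, C and E it was at 97.5, 98.1, 116 and 101 CPM. In vehicle samples A to E it was at 115, 102, 111, 112 and 103 CPM. The highest value of all was AM6545 C and the 3 lowest were the other AM6545 samples, so the groups overlapped. The AM6545 mean was 103 ± 8.68 CPM (SD, n = 4) and the vehicle mean 109 ± 5.95 CPM (SD, n = 5). The log2 fold change between them was -0.07 (SE 0.09; 95% interval -0.27 to 0.12; edgeR quasi-likelihood adjusted p = 0.817). On the linear scale the interval runs from 0.831 to 1.08 times the vehicle level. Bdnf also varied little over the 9 samples, with a coefficient of variation of 6.94%, and 4.64% of the 14512 genes tested varied less. Counting error alone would give 2.04% at its 1887 to 2781 counts per sample. The 4.64% is a rank among genes of all levels. Beyond counting error, edgeR put the variation of Bdnf at 10.2%, beside 12.8% on the trend for genes of its level.

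Ntf3 (ENSMUSG00000049107.14), which encodes neurotrophin-3, had between 289 and 510 counts per sample. It was at 16.2, 17.2, 20.9 and 17.8 CPM in AM6545 samples A, B, C and E. Vehicle samples A to E were at 16.7, 18.7, 18.5, 21.3 and 18.3 CPM. Vehicle D and AM6545 C were highest, and the groups overlapped over most of their range. The AM6545 mean was 18.03 ± 2.02 CPM (SD, n = 4) and the vehicle mean 18.7 ± 1.66 CPM (SD, n = 5). Their log2 fold change was -0.05 (SE 0.11; 95% interval -0.29 to 0.18; edgeR quasi-likelihood adjusted p = 0.900). AM6545 C weighed on both ligands: without it the log2 fold change was -0.14 for Bdnf and -0.13 for Ntf3, with neither past the threshold.

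**Figure D2:**
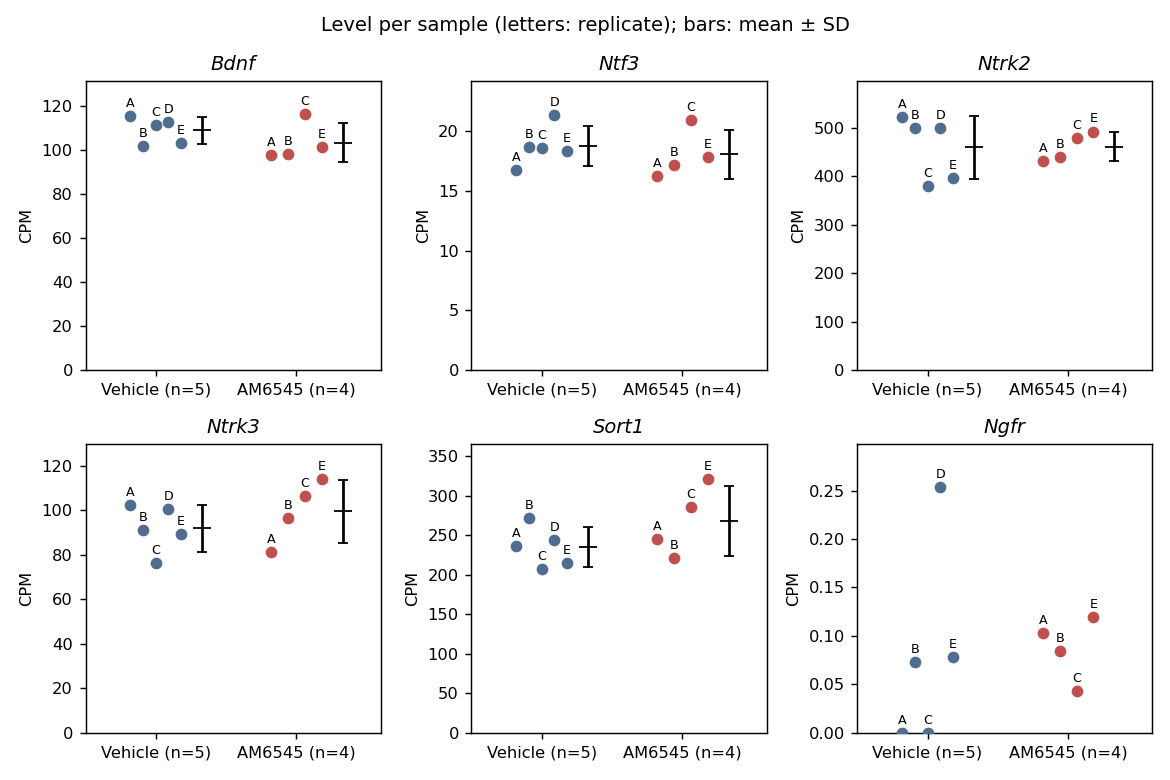
Level of the 6 genes in CPM (linear axes from 0), 1 point per sample with its replicate letter; bars are the mean ± SD of 5 vehicle and 4 AM6545 samples, and Ngfr has none because of its counts of 0. The groups overlap for each gene, with Sort1 in AM6545 E at 321 CPM above every vehicle sample.

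Ntrk2 (ENSMUSG00000055254.16), which encodes TrkB, had nearly the same mean level in both groups. It was at 431, 440.3, 479 and 492 CPM in AM6545 samples A, B, C and E. In vehicle samples A to E it was at 522, 499, 380.3, 498 and 396 CPM. The vehicle samples lay both above and below all AM6545 samples: vehicle A, B and D were the highest of the 9, and vehicle C and E the lowest. The means of 461 ± 29.4 CPM (SD, n = 4) and 459 ± 65.9 CPM (SD, n = 5) gave a log2 fold change of 0.0048 (SE 0.12; 95% interval -0.25 to 0.26; edgeR quasi-likelihood adjusted p = 0.993). Without vehicle C, the lowest sample, it was -0.06.

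Ntrk3 (ENSMUSG00000059146.13) encodes TrkC, the receptor kinase for neurotrophin-3. In AM6545 samples A, B, C and E it was at 81.5, 96.4, 107 and 114 CPM. Vehicle samples A to E gave 102, 91.3, 76.2, 100.4 and 89.4 CPM. AM6545 C and E lay above all vehicle samples, while AM6545 A was lower than each vehicle sample but vehicle C. The means were 99.7 ± 14.1 CPM (SD, n = 4) and 91.9 ± 10.4 CPM (SD, n = 5). This is a log2 fold change of 0.12 (SE 0.12; 95% interval -0.13 to 0.37; edgeR quasi-likelihood adjusted p = 0.773). It was 0.05 without AM6545 E, 0.06 without vehicle C and 0.20 without AM6545 A, none past the threshold.

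Sort1 (ENSMUSG00000068747.15), the gene of sortilin, had the largest fold difference between group means among the 5 genes tested. It was at 245, 222, 285 and 321 CPM in AM6545 samples A, B, C and E. Vehicle samples A to E were at 237, 272, 208, 244 and 215 CPM. AM6545 C and E exceeded every vehicle sample, and AM6545 B lay below 3 of the 5. Means of 268 ± 43.9 CPM (SD, n = 4) and 235 ± 25.6 CPM (SD, n = 5) gave a log2 fold change of 0.19 (SE 0.12; 95% interval -0.07 to 0.45; edgeR quasi-likelihood adjusted p = 0.675). On the linear scale this is 1.14 times the vehicle level, with an interval of 0.952 to 1.37. Without AM6545 E the log2 fold change was 0.09. Without AM6545 B it was 0.27, with an unadjusted p of 0.0440 and an edgeR adjusted p of 0.920, the 1 alternative in which Sort1 had an unadjusted p under 0.05. AM6545 E was also highest in the 6 microglia markers, which summed to 549 CPM there and to 308 to 508 CPM in the 8 others. It was highest too in the 5 CA1 pyramidal markers, at 557 CPM against 438 to 548 CPM. Of the 4 samples highest in Sort1, 3 were among the 4 highest in microglia markers, and the same number held for CA1 and for excitatory markers. Between the groups, 4 of 6 microglia markers were higher in AM6545 samples, with a median log2 fold change of 0.11. Of the 6, 1 was higher at an unadjusted edgeR p under 0.05 and 1 had groups without overlap. Over all genes tested, in either direction, these shares were 7.21% and 1.45%. The part of these cells in the Sort1 level was not tested.

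Ngfr (ENSMUSG00000000120.7), the gene of the p75 receptor, was close to undetected. It had 2, 2, 1 and 3 counts in AM6545 samples A, B, C and E and 0, 2, 0, 6 and 2 counts in vehicle samples A to E. These are 18 counts in all, against 51573 for Sort1. A count of 0, which allows up to 3 counts, allows up to 0.173 CPM in vehicle A and 0.152 CPM in vehicle C, for counting error only. The vehicle sample with 6 counts and the AM6545 samples with 1 to 3 do not differ in a way that this depth can show. Basal forebrain cholinergic neurons, whose axons reach the hippocampus, are a known site of p75. Their markers were also low: Chat had at most 5 counts in a sample, Slc18a3 at most 5 and Slc5a7 at most 15. Of these, Slc5a7 alone passed the count filter, with a log2 fold change of -0.56 and no unadjusted p under 0.05 by edgeR. The part of these axons in the Ngfr level was not tested.

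In the comparison of the 14512 genes tested, 0.0% passed an adjusted p of 0.05 by edgeR's quasi-likelihood test, 7.21% had an unadjusted p under 0.05, and 1.45% had CPM ranges that did not overlap between the groups. Among the 5 neurotrophin genes tested, 0 passed the adjusted threshold, 0 had an unadjusted p under 0.05 (the smallest was 0.140, for Sort1) and 0 had groups without overlap. Their median log2 fold change was 0.0048, beside -0.0090 over all genes tested. With 5 genes, counts of 0 say little against these background shares. The intervals bound what was measured more closely: for each of the 5 genes they leave out a change to 1.5 times the vehicle level or more.

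**Figure D3:**
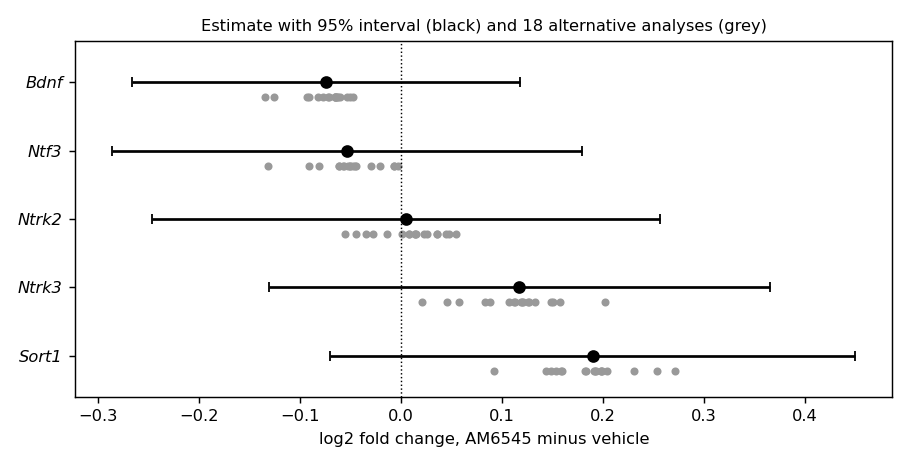
Log2 fold change of AM6545 against vehicle for the 5 tested genes, with the estimate and its 95% interval in black and the estimates of 18 alternative analyses in grey. Each interval includes 0, and the grey points lie on both sides of 0 for Ntrk2 only.

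Ratios inside a library do not depend on how libraries are scaled, so pairs of members were also compared within libraries. The pairs were chosen by role: ligand with ligand, Trk with Trk, and p75 with its co-receptor. There were 5.55 to 6.01 Bdnf counts for each Ntf3 count in AM6545 samples and 5.28 to 6.89 in vehicle samples. The mean log2 ratio differed by -0.02 between groups (two-sided exact permutation p = 0.905, adjusted over 2 ratios p = 0.905), and it turned to 0.04 without vehicle A, which had the highest ratio. Ntrk2 had 4.31 to 5.29 counts for each Ntrk3 count in AM6545 samples and 4.43 to 5.47 in vehicle samples. That log2 ratio differed by -0.10 (two-sided exact permutation p = 0.254, adjusted p = 0.508), and by -0.16 without AM6545 A. The smallest p these groups allow is 0.0159. The ratio of Ngfr to Sort1 was not formed, because Ngfr was at 0 in 2 samples.

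The rest of the pathway was read from 9 lists that hold 133 other genes, of which 129 were tested. By edgeR's quasi-likelihood test 0 of the 129 passed the adjusted threshold. An unadjusted p under 0.05 was found for 9 genes, or 6.98%, close to the share over all genes tested. Of these 9, 8 had a higher mean in AM6545 samples and 1 had a lower one. Over all 14512 genes tested, 440 were higher and 607 lower at that p. The difference between these splits was not tested. Groups without overlap were found for 1 gene, Prkcb, or 0.775%. The median log2 fold change of the 129 genes was 0.02. Of them 75 had a higher mean in AM6545 samples, and over all genes tested that share was 48.2%. Each of the genes named from these lists below had an edgeR adjusted p of 0.653 or more.

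Among other neurotrophin ligands and receptors, 6 of 8 genes were tested, with 5 higher and 1 lower and a median log2 fold change of 0.20. Sorcs3, a neuronal relative of sortilin, was at 51.2, 60.5, 71.3 and 72.8 CPM in AM6545 samples A, B, C and E. In vehicle samples A to E it was at 47.1, 52.9, 46.1, 55.5 and 50.7 CPM. Of the AM6545 samples, B, C and E were above all vehicle samples, and the log2 fold change was 0.34 (SE 0.11, unadjusted p = 0.00861, edgeR adjusted p = 0.653). Sorl1, Sorcs1 and Sorcs2, the other sortilin relatives, had log2 fold changes of 0.21, 0.19 and 0.26. The grouping of these 4 genes with Sort1 was made after their values were seen: all 5 were highest in AM6545 E, and their median log2 fold change went from 0.21 to 0.11 without that sample. Nradd, a p75-like receptor gene, was the 1 lower gene, at -0.31 (SE 0.33), and stood at -0.11 without vehicle D and -0.48 without vehicle C.

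Genes of proneurotrophin processing and release had 13 higher and 1 lower of 14 tested, with a median log2 fold change of 0.17. The number higher ran from 10 to 14 over 18 alternatives and was lowest without AM6545 E. The prohormone convertase gene Pcsk2 had a mean of 231 ± 32.3 CPM with AM6545 (SD, n = 4) and of 194 ± 15.7 CPM with vehicle (SD, n = 5). Its log2 fold change was 0.25 (edgeR unadjusted p = 0.0374). Cpe, the gene of carboxypeptidase E, which takes part in sorting BDNF to secretory vesicles, was at -0.0057, and its sign changed with the scaling (0.0028 with DESeq2 size factors). Among 20 Trk adaptor genes, 12 were higher and 8 lower. Shc3, a neuronal adaptor of Trk receptors, had a mean of 17.6 ± 1.85 CPM with AM6545 (SD, n = 4) and of 14.4 ± 2.04 CPM with vehicle (SD, n = 5). Its log2 fold change was 0.29 (edgeR unadjusted p = 0.0336). Frs2, another adaptor, was at -0.14, and at -0.07 without AM6545 B and -0.08 without vehicle A.

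Downstream of the Trk receptors, the Ras and MAP kinase list was even, with 10 of 20 higher and 10 lower. The small GTPase gene Rap1b had a log2 fold change of -0.22 (edgeR unadjusted p = 0.0434, adjusted p = 0.653), and the MAP kinase gene Mapk7 was at 0.21. In the PI3 kinase and Akt list 4 of 12 were higher and 8 lower. The number higher ran from 4 to 7 over the 18 alternatives and was 7 without AM6545 C. The PI3 kinase subunit genes Pik3r2 and Pik3cd had log2 fold changes of 0.28 (edgeR unadjusted p = 0.0216) and 0.37 (edgeR unadjusted p = 0.0292, adjusted p = 0.653). Bad, a regulator of cell death, was at -0.16. All 10 genes of the phospholipase C and calcium list had a higher mean in AM6545 samples (9 or 10 of them over 18 alternatives), with a median log2 fold change of 0.17, and 0 had an unadjusted p under 0.05. Their summed level was 2269 to 2638 CPM in AM6545 samples and 1805 to 2347 CPM in vehicle samples, with vehicle A lowest. The excitatory markers shared the lowest sample of these genes but not their order. AM6545 B was highest in the calcium list (2638 CPM) and stood at 8021 CPM in excitatory markers. Vehicle C was highest in excitatory markers (9370 CPM) and stood at 2175 CPM in the calcium list. Vehicle A was also the lowest sample in the summed excitatory (7507 CPM), dentate granule (579 CPM) and CA1 pyramidal markers (438 CPM). The CA1 sums came closer to the order of the calcium list. In vehicle E, C, D and A they fell from 496 to 471, 452 and 438 CPM. The calcium list fell there from 2217 to 2175, 2085 and 1805 CPM. CA2 and inhibitory interneuron markers were lowest in AM6545 E, and CA3 markers in vehicle C. Between the groups, 5 of 5 CA1 markers were higher in AM6545 samples, 1 of them at an unadjusted p under 0.05, with a median log2 fold change of 0.19. Of the 8 excitatory markers, 5 were higher, with a median of 0.16, and Camk2a is in that list and in the calcium list. Their part in the difference was not tested. Prkcb, a protein kinase C gene, was at 813 to 900.4 CPM in AM6545 samples and 612 to 788 CPM in vehicle samples, with a log2 fold change of 0.22 (unadjusted p = 0.0548).

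**Figure D4:**
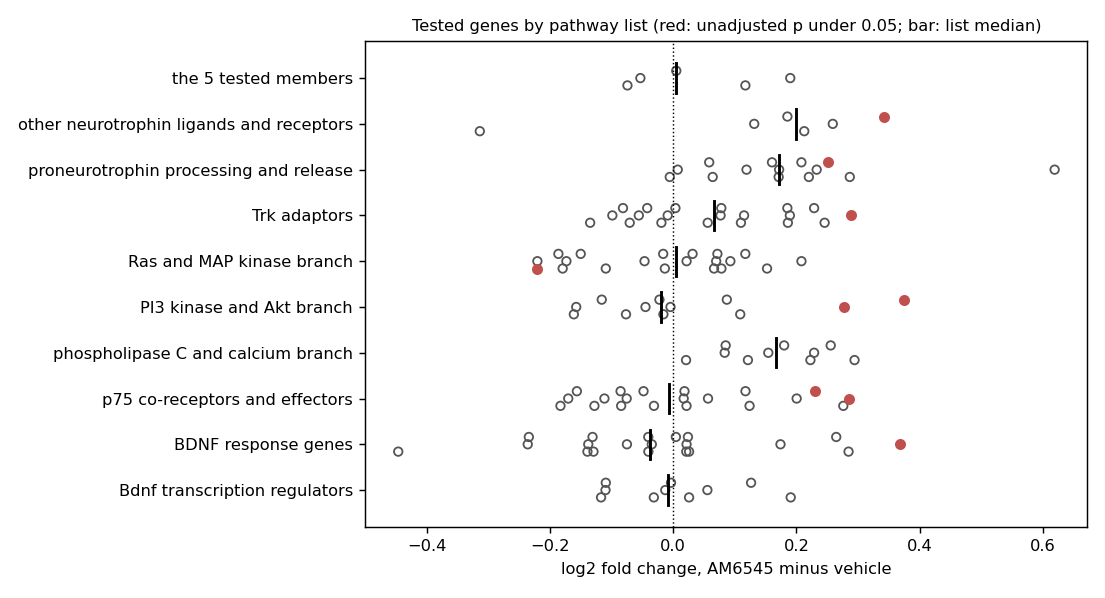
Log2 fold change of AM6545 against vehicle for each tested gene, by pathway list; red points have an unadjusted p under 0.05 and black bars are list medians. The 10 phospholipase C and calcium genes lie above 0, while the Ras and MAP kinase genes are split 10 to 10.

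Partners of the p75 receptor were measured although Ngfr was near 0. Of 20 tested, 10 were higher and 10 lower. Lingo1, a p75 co-receptor in myelin signalling, had a mean of 222 ± 17.6 CPM with AM6545 (SD, n = 4) and of 182 ± 23.1 CPM with vehicle (SD, n = 5). Its log2 fold change was 0.29 (edgeR unadjusted p = 0.0184). Rtn4rl1, a relative of the Nogo receptor, was at 0.23 (edgeR unadjusted p = 0.0430), and Bex3, which encodes a p75-binding protein, at -0.18, and at -0.12 without AM6545 E or without vehicle C. Genes known to respond to BDNF were split, with 9 of 20 higher and 11 lower, and from 5 to 12 higher over the 18 alternatives. Vgf, a neuropeptide precursor gene induced by neurotrophins, was at 107, 96.3, 93.5 and 102 CPM in AM6545 samples A, B, C and E. Its vehicle values were 65.9, 101.4, 70.7, 69.1 and 78.7 CPM, so that vehicle B alone lay within the AM6545 range. The log2 fold change of Vgf was 0.37 (SE 0.12, unadjusted p = 0.00868, edgeR adjusted p = 0.653). Npy, the neuropeptide Y gene, was at -0.23. Of 10 regulators of Bdnf transcription 4 were higher and 6 lower, with the CREB coactivator gene Crtc1 at 0.19 and Usf2 at -0.12. The value of Usf2 was -0.012 without vehicle A and -0.18 without vehicle C.

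Variation between samples was compared for the 5 genes. Over the 9 samples, Pearson's r of log2 CPM was 0.76 for Ntrk2 with Ntrk3, 0.70 for Ntrk3 with Sort1 and 0.66 for Ntrk2 with Sort1 (Spearman's rho 0.65, 0.67 and 0.52). Between Bdnf and the 3 receptor genes r ran from -0.03 to 0.26, and r was 0.57 for Bdnf with Ntf3. These are descriptions of 9 samples that also share depth and tissue composition. All 3 receptor genes were lowest in vehicle C, while Bdnf and Ntf3 were lowest in AM6545 A.

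Glial marker levels moved with Ntrk2 and Ntrk3 across samples. The 6 astrocyte markers summed to 2486, 2295, 2641 and 3017 CPM in AM6545 samples A, B, C and E. In vehicle samples A to E they summed to 3167, 3086, 2094, 2853 and 2262 CPM. The 4 samples highest in Ntrk2 were the same 4 that were highest in astrocyte markers, and vehicle C was lowest in both. The 4 samples highest in Ntrk3 were likewise those highest in oligodendrocyte markers. Other glial lists came near these matches. Ntrk2 shared 3 of its 4 highest samples with oligodendrocyte and 3 with microglia markers. Ntrk3 shared 3 with astrocyte and 3 with microglia markers. Bdnf too shared 3 of its 4 highest samples with oligodendrocyte markers, and 2 with astrocyte and 2 with microglia markers. For Sort1, 2 of the 4 highest samples were shared with astrocyte and 2 with oligodendrocyte markers. Between the groups the astrocyte list had 2 of 6 markers higher and 4 lower, with a median log2 fold change of -0.04, and the oligodendrocyte list 3 of 6 higher, with a median of -0.05. None of these markers was at 0 in all samples, and their part in the receptor levels was not tested. Dentate granule markers, of a cell type that expresses Bdnf and Ntf3, summed to 648 to 703 CPM in AM6545 samples and 579 to 698 CPM in vehicle samples.

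**Figure D5:**
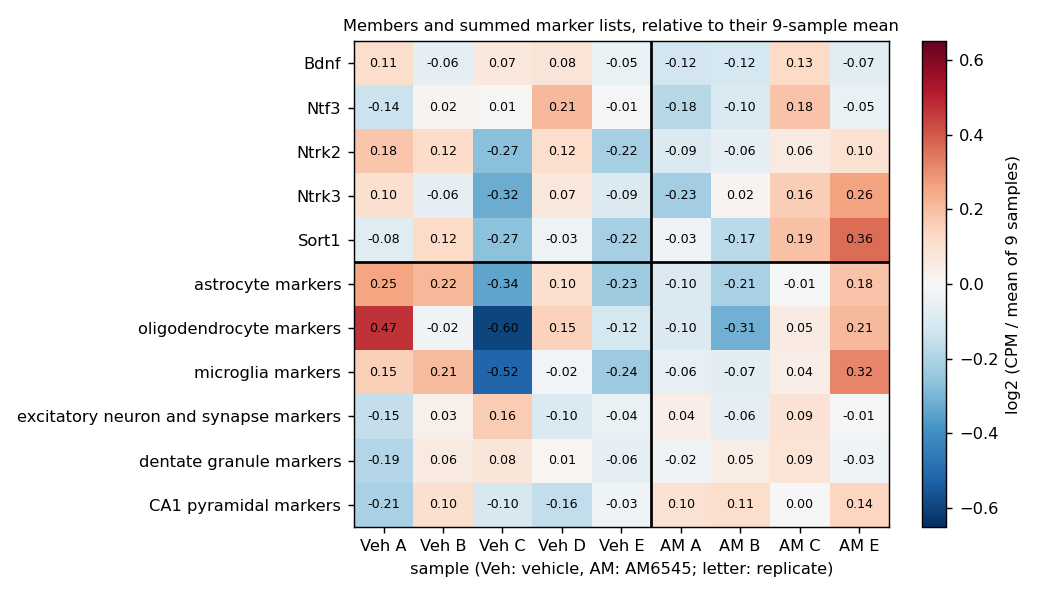
Level of the 5 tested genes and of 6 summed marker lists in each sample, as log2 of CPM over the mean of the 9 samples (colour and printed value). In vehicle C the 3 receptor genes are at -0.27, -0.32 and -0.27 and the astrocyte and oligodendrocyte markers at -0.34 and -0.60, while Bdnf is at 0.07 and the excitatory markers at 0.16.

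The genes whose pattern over the 9 samples was most like each neurotrophin gene are given as a description. For Ntrk2 these were Serpine2, a protease inhibitor gene (r = 0.97, rho = 0.98), and Cpe (r = 0.97, rho = 0.93). For Sort1 they were Rnf145 (r = 0.98, rho = 0.98) and Cspg4, the NG2 proteoglycan gene of oligodendrocyte precursors (r = 0.98, rho = 0.97). Fat4 and Tmem140 were nearest to Ntrk3 (r = 0.97 and 0.96, rho = 0.98 for each), Zfp551 and Ociad1 to Bdnf (r = 0.96 and 0.92, rho = 0.93 and 0.83), and Spag1 and the somatostatin receptor gene Sstr2 to Ntf3 (r = 0.93 for each, rho = 0.97 and 0.85). Such values are usual here: the nearest gene to a tested gene had a median r of 0.97, with quartiles of 0.95 and 0.98, so the nearest genes to Bdnf and Ntf3 were no closer than is typical.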

How the data were processed

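Gene-level RNA-seq values of 9 hippocampal synaptoneurosome samples were used. The values, as deposited by the authors, are estimated counts: unscaled, and whole numbers for 56.6% to 69.4% of genes per sample. Salmon 1.3 and DESeq2 1.30, with the builds GRCm39 and mm10, are named in the submitters' processing notes without a role; libraries were made with a SMARTer low-input kit, per the labels' protocols. Counts were rounded. Symbols were found for 22155 of 22255 identifiers in GENCODE M21. Of all identifiers, 22144 had another version there, so M21 served for symbols and lengths only.

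Genes were filtered with filterByExpr, scaled with TMM and tested across all genes with edgeR 4.0.16 (R 4.3.3, quasi-likelihood, Benjamini-Hochberg, threshold 0.05). Standard errors are the absolute log2 fold change over the square root of F; intervals are 95%. Log2 CPM used a prior count of 2. The fit was tested on simulated data. Ratios were compared by exact permutation over samples.

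Members, lists and tests were chosen with earlier results of these data known. Named genes are the 6 members, in each list those with an unadjusted p under 0.05 and the smallest p per direction, and the 2 genes nearest each member by r. Sorl1, Sorcs1, Sorcs2, Ntf5, Plg, Plat and the 3 cholinergic markers are named outside this rule, after their values were seen. Alternatives were other scalings and filters, DESeq2 1.42.0, limma-voom (limma 3.58.1), a letter block, removal of length trends (lowess span 0.3) and leaving out each sample. Values of some single list genes are not reported here.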

Additional observations from a re-analysis of the deposited data

Results flagged for a closer look

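Of 72 groups of values (36 results in 2 groups), 1 had a sample farther from the others than Dixon's 95% critical value, where chance gives about 3.6. This was Zfp551, named for its likeness to Bdnf, at 6.40 CPM in AM6545 C. AM6545 A, B and E lay between 4.81 and 4.96 CPM (gap over range 0.906). Bdnf was highest in AM6545 C too.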

How the results depend on the processing

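Bdnf, Ntf3, Ntrk3 and Sort1 kept their direction under all 18 alternatives, with log2 fold changes of -0.14 to -0.05, -0.13 to -0.0027, 0.02 to 0.20 and 0.09 to 0.27. No member passed the adjusted threshold in any alternative (smallest adjusted p = 0.416, Sort1 without vehicle B). Ntrk2 ran from -0.056 to 0.055 with samples left out and was -0.034 with length trends removed. With samples left out, the Bdnf to Ntf3 ratio ran from -0.057 to 0.039. Per kilobase of the longest transcript Bdnf was at 24.9, Ntrk2 at 52.6 and Ntrk3 at 4.84 CPM, by construction of the longer divisor. Over all genes, the count at an unadjusted p under 0.05 was 1823 with limma-voom sample weights and ran from 496 to 1848 with samples left out: 663, 642, 690 and 1848 without AM6545 A, B, C and E, and 496 and 1797 without vehicle A and B. The adjusted count ran from 0 to 1, the 1 gene being Gm14308 without AM6545 A; the cause was not tested. Of the 28 other named genes, 3 near 0 changed sign. Cpe was at 0.0028 with DESeq2 size factors, 0.0031 with limma-voom, 0.0050 with sample weights, 0.0039 with DESeq2 and -0.081 to 0.052 with samples left out. Sstr2 ran from -0.026 to 0.034 with samples left out. Serpine2 was at 0.020 with length trends removed and -0.15 to 0.021 with samples left out. The title letters are not stated to pair samples: deviations of same-lettered samples correlated at -0.02 to 0.34, and 1 of 4 AM6545 samples correlated best with its own letter. With the letter as a replicate block 0 genes passed and 759 had an unadjusted p under 0.05, Cpe was at 0.057 and Serpine2 at 0.00081. Ngfr, at 0 to 6 counts, is limited by depth.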

Other observations

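Other neurotrophin pathway genes were also near 0 in this fraction. Ntf5, which encodes neurotrophin-4, had 1 to 12 counts per sample, 23 in all over the 4 AM6545 samples and 26 over the 5 vehicle samples. Plg, the plasminogen gene, had 1 count in all samples together, while the tissue plasminogen activator gene Plat had a mean of 67.9 ± 10.8 CPM with AM6545 (SD, n = 4) and of 58.3 ± 7.44 CPM with vehicle (SD, n = 5).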
